A study of Mus musculus with 60 samples.

Results

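Fluoxetine was compared with vehicle in the prefrontal cortex of wild-type (WT) female mice, using 10 of the 60 RNA-seq libraries of a study of Tbr1+/K228E mice. The 5 fluoxetine libraries came from WT C57BL/6J females whose exposure to fluoxetine ran from postnatal day 3 to day 24 through the milk of the dam. The 5 vehicle libraries came from WT C57BL/6J females given vehicle over the same 3 weeks by the same route. Tissue was collected at postnatal day 25, and neither group carries the K228E allele, a lysine-to-glutamate substitution in the transcription factor TBR1. Libraries entered by genotype, sex and treatment, with earlier results of these data known. The rest of the study holds lithium-treated mice, males and heterozygous (HT) mice, in 12 groups of 5 in all. Male libraries were left out of the comparison on such a result: vehicle-treated male libraries had been found to form a cluster of their own. They still entered the main fit, which holds all 60 libraries, and so add to its spread and to the slopes on marker levels used below. Between fluoxetine and vehicle, 10316 genes (58.0%) differed in WT males and 7356 (41.4%) in HT males (limma, adjusted p below 0.05). No litter, dam or batch is given in the labels. The p-values therefore reflect the spread between libraries only, and littermates would share the treatment of their dam. In the main fit this spread is pooled over all 12 groups.

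Fluoxetine is a selective serotonin reuptake inhibitor: it blocks the serotonin transporter on serotonergic axons, so that released serotonin stays longer outside the cell. In rodents, serotonin acts on developing cortical neurons through many receptors, most of them coupled to G proteins, and exposure to such inhibitors in early postnatal life is used as a model of altered serotonin signalling during cortical maturation. The frontal cortex lies directly behind the olfactory bulb, the relay station for smell. Mitral and tufted cells are the output neurons of the bulb, and granule and periglomerular cells are its interneurons, which are replenished by neuroblasts migrating in from the wall of the lateral ventricle.

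A set of 7 transcripts of the olfactory bulb served as markers, chosen with earlier results of these data known, and all 7 were lower with fluoxetine. Eomes and Tbx21 encode T-box transcription factors of mitral and tufted cells, and are relatives of Tbr1. Doc2g, Cdhr1 and Shisa3 are further transcripts of mitral and tufted cells. Th encodes the rate-limiting enzyme of dopamine synthesis, made in the bulb by periglomerular cells, and Trh encodes the precursor of thyrotropin-releasing hormone. The 250 bases before the annotated start of the gene are shown for the 4 markers whose window matches the loosened T-box half-site AGGTGNNA on either strand. They are given 5′ to 3′ on the strand of the gene, with each match in capitals (a match on the opposite strand reads TNNCACCT), from RefSeq on build GRCm38.p6 at chr9:118477939-118478188 (plus strand) for Eomes, chr11:97115332-97115581 (minus) for Tbx21, chr19:4003135-4003384 (plus) for Doc2g and chr5:67607633-67607882 (plus) for Shisa3.
Eomes: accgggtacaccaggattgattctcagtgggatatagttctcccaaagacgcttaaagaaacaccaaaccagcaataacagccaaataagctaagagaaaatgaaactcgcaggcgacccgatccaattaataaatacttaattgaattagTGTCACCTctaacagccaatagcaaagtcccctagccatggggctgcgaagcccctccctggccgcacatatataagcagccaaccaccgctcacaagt
Tbx21: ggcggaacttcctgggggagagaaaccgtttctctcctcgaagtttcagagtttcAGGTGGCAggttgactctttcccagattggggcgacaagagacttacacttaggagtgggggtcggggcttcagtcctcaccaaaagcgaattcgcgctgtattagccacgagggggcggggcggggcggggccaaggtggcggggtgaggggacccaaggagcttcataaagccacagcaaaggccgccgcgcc
Doc2g: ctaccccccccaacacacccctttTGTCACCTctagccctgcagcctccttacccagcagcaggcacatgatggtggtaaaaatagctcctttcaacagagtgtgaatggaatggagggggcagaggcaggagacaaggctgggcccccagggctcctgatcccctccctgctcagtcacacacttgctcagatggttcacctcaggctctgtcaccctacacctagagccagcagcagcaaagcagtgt
Shisa3: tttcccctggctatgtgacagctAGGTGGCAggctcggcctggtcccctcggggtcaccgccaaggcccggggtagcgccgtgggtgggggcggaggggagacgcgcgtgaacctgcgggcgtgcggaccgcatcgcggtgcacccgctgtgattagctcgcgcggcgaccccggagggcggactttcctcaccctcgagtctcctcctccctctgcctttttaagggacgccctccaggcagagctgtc
All 7 markers had a window in the RefSeq table. Bases just after the annotated start were found in a GENCODE transcript of the gene for every marker except Eomes. The half-site AGGTGTGA was searched first and lay in 0 of the 7 windows, against 1.12% of the 32851 windows of the table. The looser letters AGGTGNNA were chosen after that result and lay in 4 of the 7, against 13.7% of all windows. These matches describe letters only.

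All 10 libraries were deep, with 29916606 to 31320116 reads assigned to genes in the fluoxetine libraries and 26706370 to 33297146 in the vehicle libraries. Values below are normalised reads, that is, reads per gene over the size factor of the library. The share of reads from genes of the mitochondrial genome was 5.14% ± 0.36 in fluoxetine libraries and 4.81% ± 0.26 in vehicle libraries (SD, n = 5 each). Cortical neurons were well represented in every library. Slc17a7, the vesicular glutamate transporter of cortical excitatory neurons, ranged from 53588 to 57051 in fluoxetine libraries and from 29368 to 50382 in vehicle libraries. Bulb transcripts were present beside them, at levels that separated the groups.

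All 7 bulb markers fell in fluoxetine-treated WT females, and for none of them did the groups overlap. Over all 17781 genes tested, 19.0% fell and 13.5% were lower without overlap. Because the markers were chosen with earlier results of these data known, their p-values and these shares only describe the difference. Eomes had 5.75, 6.96, 2.01, 22.9 and 117 normalised reads in the fluoxetine libraries, against 874, 1145, 1203, 372 and 598 in the vehicle libraries. The highest fluoxetine library, replicate 5, was below the lowest vehicle library, replicate 4. The log2 fold change of Eomes (fluoxetine over vehicle, on log2 of the value + 1) was -5.83 ± 1.2 (SE; limma, adjusted p = 0.000631). Doc2g had 52.7, 52.7, 46.3, 163 and 518 normalised reads in fluoxetine libraries and 4218, 5528, 7862, 1682 and 2418 in vehicle libraries, with a log2 fold change of -5.19 ± 1.02 (limma, adjusted p = 0.00045). Th had 53.7, 48.7, 48.3, 107 and 275 in fluoxetine libraries and 1935, 2294, 2597, 886 and 1174 in vehicle libraries, with a log2 fold change of -4.3 ± 0.88 (limma, adjusted p = 0.000596). In each of these genes replicate 5 was the highest fluoxetine library and replicate 3 the highest vehicle library. The other markers behaved alike: log2 fold changes were -5.6 for Tbx21, -5.15 for Shisa3, -4.75 for Cdhr1 and -4.12 for Trh. Across the 10 libraries the log2 levels of any 2 of the 7 markers correlated with r of at least 0.957, a description over libraries that share their group.

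**Figure D1:**
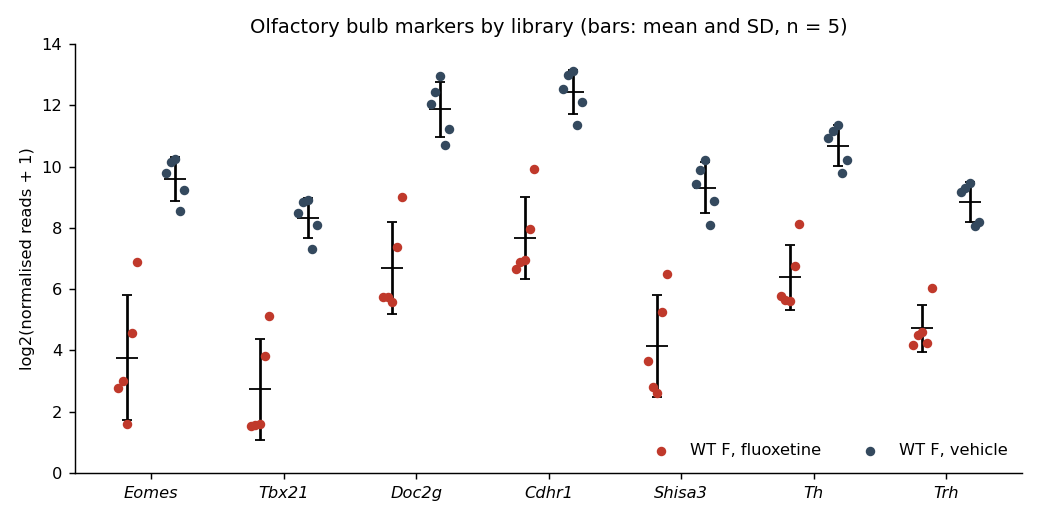
Levels of 7 olfactory bulb markers, as log2(normalised reads + 1), in the 5 fluoxetine (red, left) and 5 vehicle (dark, right) libraries of WT females. Points are libraries and bars give mean and SD; no marker has overlapping groups, and Eomes stands furthest apart, with a log2 fold change of -5.83.

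The mean log2 level of the 7 markers summarises the bulb transcripts of a library. It was 4.33, 4.31, 4.07, 5.71 and 7.37 in fluoxetine replicates 1 to 5, and 10.34, 10.69, 10.89, 9.13 and 9.70 in vehicle replicates 1 to 5. The groups did not overlap, and their means were 5.16 ± 1.39 in fluoxetine and 10.15 ± 0.73 in vehicle libraries (SD, n = 5 each), a difference of -4.99. Averaged on the linear scale, the markers stood at 97.6 normalised reads in fluoxetine libraries and 2074 in vehicle libraries. Among the 50 other libraries of the study the mean log2 level ran from 3.27 to 11.06: 18 were at or below the highest fluoxetine library of WT females, 17 lay between the groups and 15 were at or above the lowest vehicle library. Low and high bulb levels thus also occurred outside the comparison. In the 10 libraries themselves, fluoxetine and a low bulb marker level cannot be told apart. Nor can fewer cells of a type and less RNA per cell be told apart in bulk tissue, here and in the results below.

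**Figure D2:**
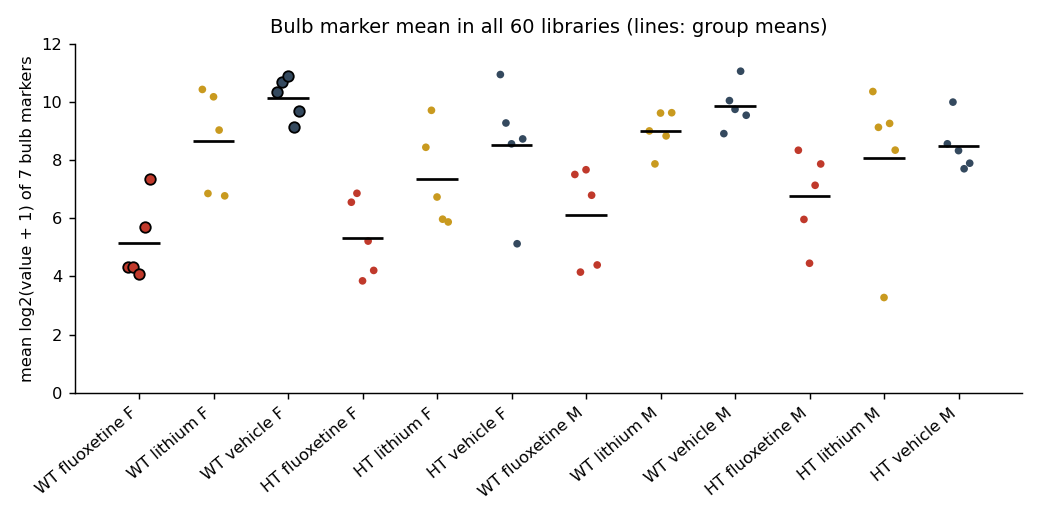
Mean log2(value + 1) of the 7 bulb markers in all 60 libraries, by genotype, treatment and sex (F female, M male); points are libraries and lines group means. The WT F groups, outlined in black, lie at 4.07 to 7.37 with fluoxetine and 9.13 to 10.89 with vehicle, without overlap, and libraries of other groups fill the range between them.

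Over all genes the difference was broad. Of 17781 genes tested, 7084 changed (39.8%; limma, adjusted p below 0.05), with 3710 higher (20.9%) and 3374 lower (19.0%) in fluoxetine libraries. The median log2 fold change over all genes was 0.0065. With a fold change of at least 1.2 required in addition, 4988 genes (28.1%) remained. For 5185 genes (29.2%) the groups of 5 did not overlap at all. Without vehicle replicate 3, the library with the highest bulb marker mean, 4298 genes were called. A fit to the female libraries alone called 6561 genes. A fit to the 2 groups compared alone called 7431, of which 6562 were also called in the main fit.

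Among called genes with a mean of at least 50 normalised reads, without overlap and with predicted genes left out, those that fell furthest were led by transcripts of the bulb and of olfactory sensory neurons. S100a5, which encodes a calcium-binding protein of olfactory sensory neurons, was at 0, 0, 1.01, 0 and 8.72 normalised reads in fluoxetine libraries and 169, 96, 216, 52.6 and 51.3 in vehicle libraries (log2 fold change -5.79 ± 1.04; limma, adjusted p = 0.000297). Omp, olfactory marker protein of mature sensory neurons, had 4.79, 4.97, 6.04, 7.97 and 22.3 in fluoxetine libraries and 426, 244, 676, 106 and 148 in vehicle libraries (log2 fold change -4.88 ± 0.87; limma, adjusted p = 0.00029). S100a5 was at 0 in 3 fluoxetine libraries, so its fold change depends on the value added before the logarithm. Ms4a15, a membrane-spanning protein of the MS4A family, changed by -5.7 and Scgn, the calcium-binding protein secretagogin of bulb interneurons, by -5.31 on the log2 scale. Eomes, Tbx21, Doc2g and Shisa3 complete the 8 genes that fell furthest by this rule.

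Bulb interneurons and migrating neuroblasts followed the same direction. The counts below stand beside 20.9% higher and 19.0% lower over all genes. Of 17 transcripts tested in the bulb interneuron list, 16 fell and 0 rose, with a median log2 fold change of -2.32. The list includes S100a5, given above as a transcript of olfactory sensory neurons. Calb2, the calcium-binding protein calretinin, had 254, 273, 347, 379 and 1047 normalised reads in fluoxetine libraries and 5651, 6928, 7699, 2633 and 3466 in vehicle libraries (log2 fold change -3.62 ± 0.67; limma, adjusted p = 0.000314). Replicate 5 was again the highest fluoxetine library, and the groups did not overlap. Of 15 neuroblast transcripts, 13 fell and 1 rose, with a median of -1.68. Dlx1, a homeobox factor of GABAergic precursors, averaged 724 ± 242 in fluoxetine and 4059 ± 1473 in vehicle libraries (SD, n = 5 each; log2 fold change -2.46), and its neighbour Dlx2 changed by -2.23. Among 16 proliferation genes only Mcm5, a subunit of the replicative helicase, was called, at 189.7 ± 10.6 in fluoxetine and 158 ± 10.2 in vehicle libraries (log2 fold change 0.26; not called without fluoxetine replicate 1 or vehicle replicate 3). Of 10 transcripts of olfactory ensheathing glia, the cells that wrap olfactory axons, 5 fell and none rose. These included Fabp7, a brain fatty acid-binding protein, at a log2 fold change of -2.79, and Prss56, a serine protease, at -2.76.

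Among the genes that rose, by the same rule, Scn4b had the highest fold change. Scn4b, which encodes a beta subunit of voltage-gated sodium channels, had 1851, 1529, 1895, 2003 and 1484 normalised reads in fluoxetine libraries and 473, 174, 145, 1226 and 1032 in vehicle libraries. The fluoxetine libraries lay close together, whereas the vehicle libraries spread from 145 in replicate 3 to 1226 in replicate 4, the libraries with the highest and the lowest bulb marker mean of their group. Its log2 fold change was 2.0 ± 0.71 (limma, adjusted p = 0.0213), and it was not called without vehicle replicate 2 or 3 (limma, adjusted p = 0.0772 and 0.0939) or by edgeR (adjusted p = 0.0555). Thbs4, an extracellular matrix protein of the thrombospondin family, had 50.8, 103, 101, 58.8 and 82.4 in fluoxetine libraries and 40.6, 11.1, 16.1, 27.9 and 34.5 in vehicle libraries (log2 fold change 1.65 ± 0.46; limma, adjusted p = 0.00533). For both genes the groups did not overlap, which the rule required. Over all genes 15.6% were higher without overlap. Others that rose were Sebox at 1.32, Tnfaip8l3 at 1.28, Alox12b at 1.27, Tcte1 at 1.15 and Pcsk5, a proprotein convertase, at 1.14. Sebox and Tcte1 also lost the call without vehicle replicate 2 or 3, and Tnfaip8l3 without vehicle replicate 3 (limma, adjusted p = 0.0506 to 0.136). By edgeR Sebox was not called (adjusted p = 0.0545).

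To see how far these fold changes follow bulb marker content, each gene was given 2 slopes, on the log and on the linear marker mean, from the 50 libraries outside the comparison, around their group means. Multiplied by the marker difference between the WT female groups, the slopes give a fold change that owes nothing to the 10 libraries except their marker levels. Across 17774 genes, with the 7 markers left out, these fold changes correlated with the measured ones at r = 0.860, which corresponds to 73.9% of the variance, and a regression of the measured on the slope-based fold changes had a slope of 0.837. Genes are not independent replicates, and they share the 10 libraries. Of the 7077 called genes other than the markers, 6982 (98.7%) had the sign that their bulb slopes give. Their median absolute log2 fold change was 0.387, and 0.0755 after the slope-based value was subtracted. Over all 17774 genes these medians were 0.211 and 0.0854. Called genes were picked by their difference in these same 10 libraries, and the share of matching signs over all genes is not given here. Among the called genes, an absolute log2 fold change above 0.5 was seen for 2618, and an absolute remainder above 0.5 for 256. With slopes taken from the 20 other female libraries alone, the correlation was 0.832.

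Single genes show the same arithmetic. Scgn had a measured log2 fold change of -5.31 and a slope-based one of -5.38. For Calb2 the values were -3.62 and -3.53. Scn4b, higher with fluoxetine, was at 2.0 measured and 2.47 by its slopes, and Tnfaip8l3 at 1.28 and 1.31. Thbs4 departed more, with 1.65 measured and 0.38 by its slopes, and so did Cldn5, the tight-junction protein claudin 5 of brain endothelium, with -0.64 and -0.17.

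**Figure D3:**
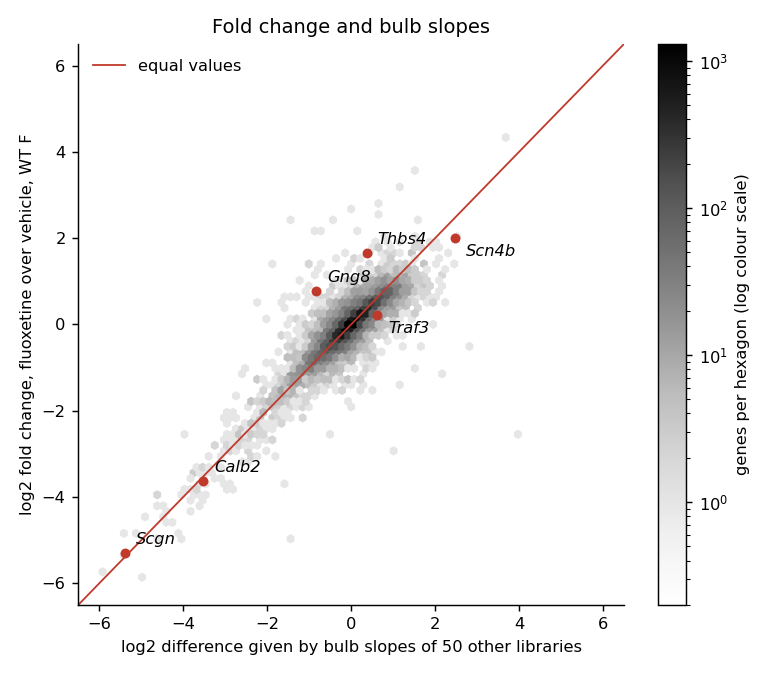
Measured log2 fold change (vertical axis, fluoxetine over vehicle, WT F) against the log2 difference given by bulb slopes of the 50 other libraries (horizontal axis), for 17774 genes in hexagons shaded by gene number on a log colour scale; 1 gene lies outside the axes. Genes lie along the line of equal values (r = 0.860), with Scgn, Calb2 and Scn4b near it and Thbs4 and Gng8 above it.

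The second approach kept the 12 groups and added both marker means to the model as covariates. With them, 4 of 17774 genes were called (0.0225%; limma), 3 lower (0.0169%) and 1 higher (0.00563%) in fluoxetine libraries, and 1669 (9.39%) had an unadjusted p below 0.05. The median standard error over genes was 0.0974 with and 0.11 without the covariates. Since the groups do not overlap in marker level, these values rest on slopes shared with the other libraries. The count depended on the method: DESeq2 called 26 genes, edgeR 4, a fit to the female libraries alone 0 and a fit that weights libraries by quality 117.

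The markers of the other neighbouring tissues differed less. The mean log2 level of 8 choroid plexus transcripts was 4.81 ± 0.14 in fluoxetine and 5.69 ± 0.35 in vehicle libraries, and that of 12 meningeal and fibroblast transcripts was 8.71 ± 0.12 in fluoxetine and 9.22 ± 0.24 in vehicle libraries (SD, n = 5 each); neither list had overlapping groups. In the choroid list 1 transcript rose and 2 fell (12.5% and 25%), beside 20.9% higher and 19.0% lower over all genes. The chloride channel protein Clic6 fell (-2.2), and so did the water channel Aqp1 (21.4 ± 12.2 in fluoxetine and 227.9 ± 111 in vehicle libraries; slope-based log2 fold change -3.09, measured -3.33), whereas the defining choroid plexus transcript Ttr, transthyretin, was at 39.1 ± 20.1 in fluoxetine and 47.3 ± 39.99 in vehicle libraries with overlap. The 14 striatal transcripts averaged 7.56 ± 0.14 in fluoxetine and 7.31 ± 0.13 in vehicle libraries, with overlap. Penk, the enkephalin precursor, and Adora2a, an adenosine receptor of striatal projection neurons, were lower (-1.28 and -1.29 on the log2 scale), and 12 of the 14 were not called. Adora2a kept its call only without fluoxetine replicate 5, vehicle replicate 4 or vehicle replicate 5 (adjusted p of up to 0.102 in the other 7 limma fits that left out 1 library), and was not called by edgeR (adjusted p = 0.0571) or under quantile normalization (limma, adjusted p = 0.0615). With the striatal and choroid means as covariates in place of the bulb markers, 15 genes were called. Of the 6 haemoglobin and red cell transcripts none was called, with mean log2 levels of 8.34 ± 0.34 in fluoxetine and 8.78 ± 0.51 in vehicle libraries.

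Tbr1 rose in the WT fluoxetine females. It had 3839, 3629.5, 3825, 3695 and 3699.9 normalised reads in fluoxetine libraries and 2019.6, 1644, 1197, 3218 and 2894 in vehicle libraries, and the groups did not overlap. The fluoxetine libraries lay close together, while among vehicle libraries Tbr1 was lowest in replicate 3 and highest in replicate 4, the reverse of their bulb marker means. The log2 fold change was 0.86 ± 0.27 (limma, adjusted p = 0.0117), against 1.09 from the bulb slopes, and -0.22 ± 0.0801 with bulb covariates (limma, adjusted p = 0.368). Without vehicle replicate 3 it was 0.66 and was not called (limma, adjusted p = 0.0703). Of 19 T-box and deep-layer fate factors, 6 rose and 6 fell (31.6% each way), beside 20.9% higher and 19.0% lower over all genes. Among them were Fezf2, a fate factor of layer 5 neurons (834 ± 20.8 in fluoxetine and 481 ± 252 in vehicle libraries; log2 fold change 0.98), and Reln, the secreted guidance protein reelin, which mitral cells also make (2671 ± 337 in fluoxetine and 5503 ± 873 in vehicle libraries; log2 fold change -1.04).

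Transcripts of cortical projection neurons changed in both directions, as did all genes tested (20.9% higher and 19.0% lower). The upper-layer and layer 5 lists each had 50% higher and 25% lower. For the layer 6 and subplate list the shares were 21.4% and 35.7%. Among 16 upper-layer transcripts 8 rose and 4 fell (median log2 fold change 0.38). Unc5d, a netrin receptor, rose with 1478, 1579.5, 1739, 1529 and 1558 normalised reads in fluoxetine libraries and 906, 917, 661, 1069.9 and 1108 in vehicle libraries (log2 fold change 0.78 ± 0.16; limma, adjusted p = 0.000775), without overlap. Mdga1, a cell adhesion protein, was in the same list and fell, at 959 ± 132 in fluoxetine and 3345 ± 1411 in vehicle libraries (log2 fold change -1.72, -1.47 from the bulb slopes). Among 12 layer 5 transcripts 6 rose and 3 fell (median 0.24); Tcerg1l (-0.53) and Deptor, an mTOR-binding protein (-0.45), were among those that fell. Among 14 layer 6 and subplate transcripts 3 rose and 5 fell (median 0.20), with Nxph4, a neurexophilin, at -2.63 and Syt6, a synaptotagmin, at -2.05. With bulb covariates the medians of these 3 lists were -0.09, -0.19 and -0.14, and none of their members was called.

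Synaptic and channel transcripts were mostly higher with fluoxetine. Of 29 presynaptic release transcripts, 21 rose and 1 fell (median log2 fold change 0.35), beside 20.9% higher and 19.0% lower over all genes. Snap25, a SNARE protein of synaptic vesicle fusion, had 67189, 65464, 71227, 69742 and 65229.6 normalised reads in fluoxetine libraries and 45008, 40808, 40365, 56205 and 52112 in vehicle libraries (log2 fold change 0.54 ± 0.12; limma, adjusted p = 0.00129). Vamp1, its vesicular partner, rose by 0.71 on the log2 scale (2776 ± 162 in fluoxetine and 1723 ± 374 in vehicle libraries). The groups did not overlap for either gene. Of 28 potassium and sodium channel transcripts, 18 rose and 6 fell (median 0.38); Kcnc1, a potassium channel of fast-spiking neurons, was among those that fell, at -0.22. Among 21 transcripts of inhibitory synapses 14 rose and 2 fell (median 0.28). Gabrg1 and Gabra5 encode GABA-A receptor subunits and moved in opposite directions, by 0.47 and -0.63. Of 33 transcripts of excitatory synapses, 17 rose and 9 fell (median 0.22); the NMDA receptor subunit Grin2d (-0.83) and the metabotropic receptor Grm4 (-1.14), both with higher values in vehicle libraries, were among those that fell. Among 17 transcripts of cortical interneurons 6 rose and 7 fell, with Slc32a1, the vesicular GABA transporter, at -0.92. With bulb covariates the medians of the 4 synaptic and channel lists lay between -0.06 and -0.05, and none of their members was called.

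**Figure D4:**
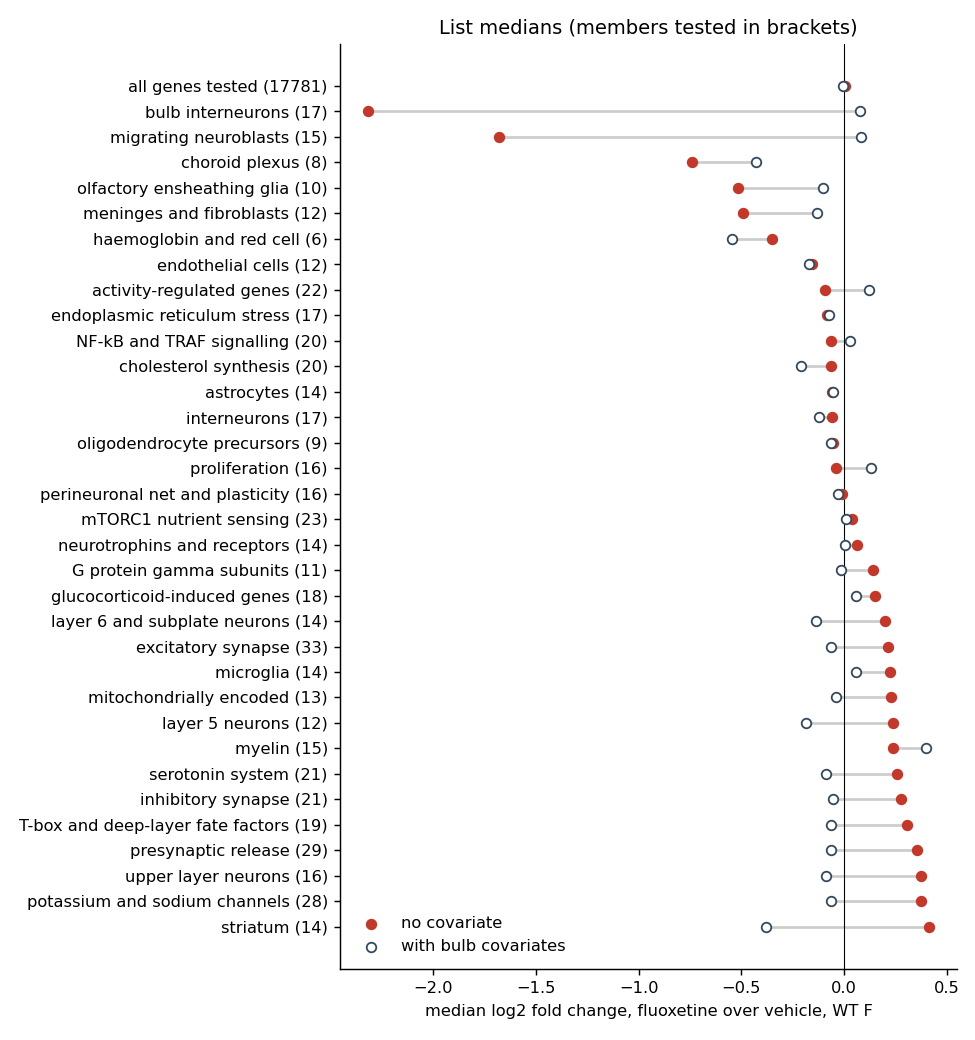
Median log2 fold change (fluoxetine over vehicle, WT F) of each gene list, ordered by the value without covariates (red) and joined to the value with bulb covariates (open); all genes are at the top and the 7 markers are left out. Bulb interneurons and migrating neuroblasts lie furthest left without covariates, at -2.32 and -1.68, and both are at 0.08 with them.

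Among 21 transcripts of the serotonin system with values, 6 rose and 6 fell (median log2 fold change 0.26), that is 28.6% each way beside 20.9% higher and 19.0% lower over all genes. All 6 that rose were receptors. Htr2c, a Gq-coupled receptor, had 1512, 1480.0, 1501, 1159 and 1771 normalised reads in fluoxetine libraries and 718, 309, 198, 1171 and 847 in vehicle libraries (log2 fold change 1.46 ± 0.45; limma, adjusted p = 0.00984). Its groups overlapped through vehicle replicate 4, which stood above fluoxetine replicate 4. Htr2a, a Gq-coupled receptor of cortical pyramidal neurons, had 1846, 1954, 1978, 1896 and 1733 in fluoxetine libraries and 1055, 1100.0, 777, 1368 and 1379.9 in vehicle libraries, without overlap (log2 fold change 0.76 ± 0.18; limma, adjusted p = 0.00183). The Gi-coupled receptors Htr1a (0.88), Htr1b (0.73) and Htr5a (0.52) and the Gs-coupled receptor Htr6 (0.57) rose as well. Htr1f, Gi-coupled, and Htr7, Gs-coupled, fell, with log2 fold changes of -0.79 and -0.35. Htr1f stood at 49.7 to 85.7 normalised reads in fluoxetine libraries and at 104 to 139 in vehicle libraries.

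Transcripts for the synthesis, storage and transport of serotonin were also among those that fell. Slc18a2, the vesicular monoamine transporter of dopamine and serotonin neurons, had 4.79, 4.97, 6.04, 5.98 and 12.6 normalised reads in fluoxetine libraries and 96.4, 100, 80.7, 34.3 and 42.9 in vehicle libraries (log2 fold change -3.14 ± 0.51; limma, adjusted p = 0.000161). The bulb slopes give -2.42 for it. Ddc, the decarboxylase shared by dopamine and serotonin synthesis, changed by -0.70, Slc29a4, a low-affinity monoamine transporter, by -0.66, and S100a10, a protein that binds serotonin receptors, by -0.28. The degrading enzyme Maoa was at 878 ± 45.1 in fluoxetine and 858 ± 43.5 in vehicle libraries and was not called (limma, adjusted p = 0.62). The remaining receptors with values, Htr1d, Htr3a, Htr4 and Htr5b, had log2 fold changes of 0.29, -0.17, 0.85 and -0.41 and were not called. Slc6a4, the target of fluoxetine, and Htr2b were not analysed here. With bulb covariates none of the 21 was called: Htr2c was at 0.27 ± 0.24, Htr2a at 0.048 ± 0.12 and Slc18a2 at -0.74 ± 0.27, and the list median was -0.09.

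Beside the counts of the next 4 lists, on plasticity and hormone signalling, stand 20.9% higher and 19.0% lower over all genes, and nothing is read from these counts. Of 14 neurotrophin transcripts 5 rose and 2 fell. Bdnf, brain-derived neurotrophic factor, rose (927 ± 80.9 in fluoxetine and 593 ± 169 in vehicle libraries; log2 fold change 0.69, -0.06 with bulb covariates), and the low-affinity receptor Ngfr (-1.29) and the growth factor Gdnf (-2.58, at 2.96 ± 1.57 reads in fluoxetine and 23.9 ± 11.5 in vehicle libraries) fell. Among 22 activity-regulated genes 4 fell and 0 rose, including the stress-responsive factor Atf3 (-2.68) and the AP-1 subunit Fosl2 (-1.02; not called without vehicle replicate 3). Fos itself had 867, 756, 1123, 1143 and 1263 in fluoxetine libraries and 1109, 884, 1713, 1605 and 1725 in vehicle libraries, which overlap, and was not called (limma, adjusted p = 0.289). Of 18 glucocorticoid-linked genes 4 rose and 2 fell, and those that fell were Cdkn1a (-0.98), a cell cycle inhibitor, and Crhr1 (-0.45), a receptor of corticotropin-releasing hormone. Of 16 genes of perineuronal nets, the matrix around mature interneurons, 4 rose and 3 fell, among them Acan, the aggrecan core protein, at 84.6 ± 12.2 in fluoxetine and 261 ± 53.5 in vehicle libraries (log2 fold change -1.6, -1.61 from the bulb slopes), and tenascin C, Tnc (-1.07).

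The counts of the glial lists stand beside 20.9% higher and 19.0% lower over all genes, and nothing is read from them. No myelin transcript of 15 was called (median log2 fold change 0.24). Mbp, myelin basic protein, was at 50968 ± 6889.7 in fluoxetine and 47320.4 ± 9606 in vehicle libraries. Of 9 transcripts of oligodendrocyte precursors 2 rose and 3 fell, with the matrix protein Tnr at 0.40 and the lineage factor Olig2 at -0.41. Among 14 astrocyte transcripts 1 rose and 5 fell: Gfap, the intermediate filament of astrocytes, had 3369.7, 3314, 2797, 3302 and 3621 in fluoxetine libraries and 5563, 7308, 6089, 4679.9 and 4959 in vehicle libraries (log2 fold change -0.79 ± 0.17, -0.70 from the bulb slopes), and the bicarbonate transporter Slc4a4 changed by -0.63. Of 14 microglial transcripts 6 rose and 1 fell. Trem2, a lipid-sensing receptor, stood at 308 to 330.4 in fluoxetine and 231 to 282 in vehicle libraries (log2 fold change 0.30 ± 0.0662; limma, adjusted p = 0.00113), and Sall1, the one that fell, is a microglial transcription factor that other brain cells also make in development (-1.55, -1.69 from the bulb slopes).

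Among 12 endothelial transcripts 5 fell (41.7%) and none rose (median -0.16), beside 19.0% lower and 20.9% higher over all genes. Cldn5 had 1055, 1019.5, 835, 932 and 841 normalised reads in fluoxetine libraries and 1538, 1334, 1691, 1367 and 1349.5 in vehicle libraries, without overlap (log2 fold change -0.64 ± 0.10; limma, adjusted p = 0.000163). The value with bulb covariates was -0.48 ± 0.11 (limma, adjusted p = 0.0761), which did not pass. Cdh5, the cadherin of endothelial junctions, was at -0.38 and, with covariates, -0.37 (limma, adjusted p = 0.347). The bulb slopes give -0.17 for Cldn5 and 0.0024 for Cdh5. Of 12 meningeal and fibroblast transcripts 8 fell (66.7%) and none rose, led by the collagens Col1a1 (-0.73, -0.43 from the bulb slopes) and Col3a1 (-0.87, -0.46). The part of the meningeal transcripts in the endothelial values was not tested.

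Genes of cholesterol synthesis, which SREBP factors switch on when sterols are scarce, are given both without and with the bulb covariates. Without covariates 1 of 20 genes rose and 2 fell, Insig1 and Stard4 (median log2 fold change -0.06). Over all genes 20.9% rose and 19.0% fell. Insig1, a sterol-regulated brake on SREBP processing, had 1592, 1463, 1657, 1717 and 1726 normalised reads in fluoxetine libraries and 1746, 1675, 2037, 1972 and 2012 in vehicle libraries (log2 fold change -0.21 ± 0.0728; limma, adjusted p = 0.0198), with overlap, and was not called without fluoxetine replicate 2 or vehicle replicate 3. With bulb covariates 19 of the 20 were below 0 (median -0.21), beside 52.0% of all genes. Of the 20, 12 had an unadjusted p below 0.05 on the lower side, beside 5.49% of all genes. None passed adjustment; the lowest adjusted p was 0.124 (limma), for Insig1 at -0.33 ± 0.0816. HT females showed 18 of 20 below 0 in the same fit, whose bulb slopes they share.

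Over all genes 20.9% rose and 19.0% fell, and nothing is read from the counts of the lists in this paragraph. Of 17 endoplasmic reticulum stress genes 5 fell, including Pdia4 (-0.32), a protein disulfide isomerase, and the transcription factor Xbp1 (-0.16), and none rose. Of 23 genes of mTORC1 nutrient sensing 7 rose and 3 fell, with Rraga (0.25), a Rag GTPase, and Tsc1 (0.18), a subunit of the inhibitory TSC complex, among those that rose. Of 20 genes of NF-kB and TRAF signalling 3 rose and 4 fell, with Traf1 at -2.1 (14 ± 1.73 reads in fluoxetine and 67 ± 25.9 in vehicle libraries) and Nfkb1 at -0.33. Of 11 G protein gamma subunits 5 rose and 2 fell; Gng4, abundant in the bulb, was at -2.23 and Gng11 at -0.50. Of 13 mitochondrially encoded transcripts 2 rose, mt-Atp8 (0.31; 0.10 and not called under quantile normalization) and mt-Nd5 (0.25, -0.089 under quantile normalization, and called only without fluoxetine replicate 1 or vehicle replicate 4 among the 10 fits that left out 1 library), and none fell.

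Of the 4 genes called with bulb covariates, 3 were lower and 1 was higher with fluoxetine. Traf3, an adaptor of TNF receptor signalling that restrains the non-canonical NF-kB pathway, had 3773, 3675, 3305, 3427 and 3377 normalised reads in fluoxetine libraries and 2934, 2779, 2338, 3636 and 3631 in vehicle libraries. The groups overlap, and without covariates the log2 fold change was 0.22 ± 0.14 (limma, adjusted p = 0.207), on the positive side. With library quality weights this positive value passed (0.24; limma, adjusted p = 0.0187). The bulb slopes give 0.61, and with covariates the value was -0.39 ± 0.066 (limma, adjusted p = 0.00383). Traf3 stayed called in all 10 fits that left out 1 library and in 12 of 15 other alternatives. In the F libraries alone it was at -0.39 and was not called (limma, adjusted p = 0.0555). With the log marker mean as the only covariate it was at -0.30 and was not called (limma, adjusted p = 0.762). The groups compared alone gave -0.33, also not called (limma, adjusted p = 0.9999).

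Castor2, a relative of the arginine sensor of mTORC1, had 4755, 4974, 4625, 4453 and 4502 in fluoxetine libraries and 5382, 5174, 4793, 5015 and 5039 in vehicle libraries. The groups overlap through fluoxetine replicate 2. Its log2 fold change was -0.12 ± 0.0555 (limma, adjusted p = 0.0673) without and -0.30 ± 0.0548 (limma, adjusted p = 0.0145) with covariates, and it stayed called in 8 of 10 fits that left out 1 library. Its adjusted p with covariates was 0.0529 without fluoxetine replicate 4 and 0.0631 without vehicle replicate 1, and the value without covariates passed when fluoxetine replicate 2 was left out (limma, adjusted p = 0.0438). Without covariates it also passed under quantile normalization (-0.24; limma, adjusted p = 0.000445), with library quality weights (limma, adjusted p = 0.0106), in the groups compared alone (limma, adjusted p = 0.0433) and by edgeR (adjusted p = 0.0348). With covariates it was not called in the F libraries alone (limma, adjusted p = 0.0555). Nor was it called with covariates in the groups compared alone, at -0.25 (limma, adjusted p = 0.9999). The bulb slopes give 0.18, of the opposite sign. Across the study its level was highest in the lithium groups, at 5691 ± 467 in WT females, against 4662 ± 210.3 with fluoxetine and 5081 ± 217 with vehicle (SD, n = 5 each).

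Fsd1, a microtubule-associated protein, had 1205, 1089, 1097, 1132 and 1059 in fluoxetine libraries and 833, 708, 643, 1026 and 966 in vehicle libraries, higher in every fluoxetine library, with a log2 fold change of 0.44 ± 0.15 without covariates (limma, adjusted p = 0.0197; 0.0624 without vehicle replicate 2 and 0.0908 without vehicle replicate 3). With covariates the sign turned, to -0.23 ± 0.045 (limma, adjusted p = 0.026), and the call was kept only when fluoxetine replicate 1, vehicle replicate 2 or vehicle replicate 4 was left out (adjusted p of up to 0.116 in the other 7 limma fits). Gng8, a gamma subunit known from olfactory and vomeronasal neurons, had 29.7, 26.9, 24.2, 27.9 and 34.9 in fluoxetine libraries and 19.3, 11.9, 11, 21.5 and 19.9 in vehicle libraries. It was higher in every fluoxetine library (log2 fold change 0.78 ± 0.29; limma, adjusted p = 0.028, and 0.0612 to 0.0995 without fluoxetine replicate 5, vehicle replicate 2 or vehicle replicate 3), whereas the bulb slopes give -0.83. With covariates it was 1.5 ± 0.31 (limma, adjusted p = 0.0457), and it kept the call only without vehicle replicate 4 (adjusted p of up to 0.117 in the other 9 limma fits). Under quantile normalization and with a replicate block Gng8 was not called either (limma, adjusted p = 0.094 and 0.0962). In the F libraries alone neither Fsd1 (limma, adjusted p = 0.367) nor Gng8 (limma, adjusted p = 0.478) was called. Both also lost the call with covariates in the groups compared alone (limma, adjusted p = 0.9999 for each). With the log marker mean as the only covariate neither was called (limma, adjusted p = 0.9999 for Fsd1 and 0.0507 for Gng8). The 4 genes lie on different chromosomes of build GRCm38: Traf3 at chromosome 12, 111166370 to 111267153, Castor2 at chromosome 5, 134099711 to 134144343, Fsd1 at chromosome 17, 55986509 to 55996881 and Gng8 at chromosome 7, 16891786 to 16895436.

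**Figure D5:**
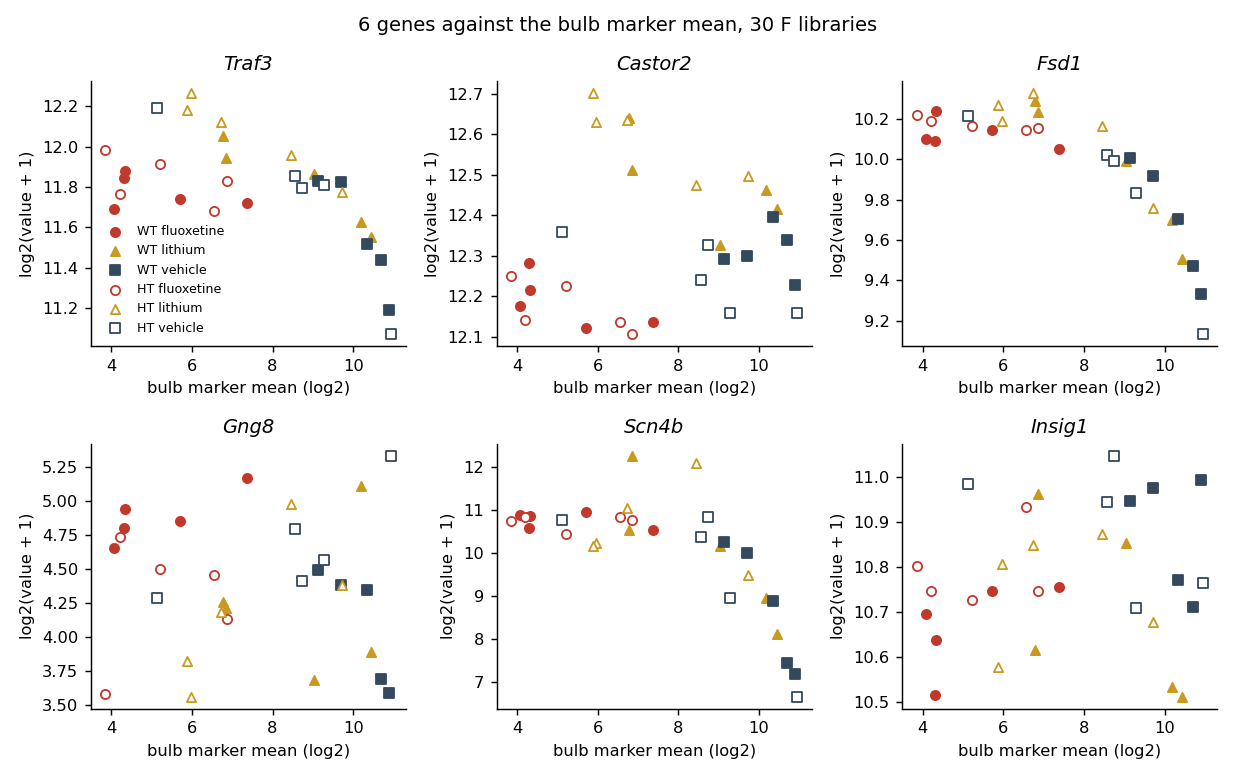
Log2(value + 1) of 6 genes against the bulb marker mean (log2) in the 30 F libraries; symbols mark treatment, filled for WT and open for HT. WT fluoxetine libraries (filled red circles) lie left of all WT vehicle libraries (filled dark squares) in each panel, at 4.07 to 7.37 against 9.13 to 10.89.

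HT females given the same treatments share no library with the WT females and offer a second view. Their bulb marker mean was 6.55, 6.86, 3.85, 5.22 and 4.21 in fluoxetine libraries and 10.95, 9.28, 8.56, 5.13 and 8.73 in vehicle libraries, so that vehicle replicate 4 lay within the fluoxetine range. No gene was called in HT females (0.0%; limma), with 4063 (22.9%) at an unadjusted p below 0.05 and a lowest adjusted p of 0.107. Of the 7077 genes called in WT females, 6962 (98.4%) had the same sign in HT females, where their median absolute log2 fold change was 0.208, against 0.387 in WT females. Across 17774 genes, called or not, the fold changes of WT and HT females correlated at r = 0.774. The WT and HT female pairs of groups differ in bulb marker content in the same direction. In males fewer of the 7077 genes had the same sign as in WT females, 84.9% in WT males and 68.9% in HT males.

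HT vehicle replicate 4 is a vehicle library with a low bulb marker mean. Scn4b had 1838, 1746, 1715, 1385 and 1827 normalised reads in HT fluoxetine libraries and 100.4, 497, 1336, 1754 and 1835 in HT vehicle libraries. Among the HT vehicle libraries Scn4b was at 1754 in replicate 4, with the lowest bulb marker mean, and at 100.4 in replicate 1, with the highest. It was highest, at 1835, in replicate 5, whose bulb marker mean was 8.73. Tbr1 had 4742, 4994, 5238, 4619 and 5078 in HT fluoxetine libraries and 1167, 3168, 4304, 4980.3 and 4323 in HT vehicle libraries, with replicate 4 inside the fluoxetine range. Slc18a2 had 9.42, 13.6, 5.49, 7.51 and 13.9 in HT fluoxetine libraries and 101, 37.9, 33.7, 10.9 and 35.3 in HT vehicle libraries, and replicate 4 was again inside. Htr2c did not follow as closely: it had 1408, 1273, 1134, 1193 and 1363 in HT fluoxetine libraries and 177, 651, 1265, 839.8 and 1355 in HT vehicle libraries, and replicate 4, at 839.8, was below every fluoxetine library. Traf3 and Castor2 went the other way. Vehicle replicate 4 stood above every HT fluoxetine library for Traf3 (4677 against 3279 to 4052) and for Castor2 (5253 against 4408 to 4872).

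The effect of fluoxetine was then tested for a difference between the genotypes. No gene passed (0.0%; limma, effect in WT females minus effect in HT females), while 508 (2.86%) had an unadjusted p below 0.05, edgeR called 0 and DESeq2 called 2. With library quality weights limma called 2752 genes, 1352 higher and 1400 lower, so the count depends on that choice. With bulb covariates limma again called 0, and 523 (2.94%) had an unadjusted p below 0.05. The log2 fold changes of Traf3 with covariates were -0.39 in WT and -0.25 in HT females, and those of Castor2 -0.30 and -0.19; in HT females both had an adjusted p of 0.508 (limma). Fsd1 was at -0.23 in WT and -0.033 in HT females, and Gng8 at 1.5 and 0.091. A p that misses the threshold does not show that the genotypes respond alike.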

How the data were processed

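Stranded mRNA libraries were made from prefrontal cortex, per the labels' protocols. The authors deposited 1 signal value per gene and library, which is reads over a size factor. The submitters' processing notes name Salmon 0.11.2, R 3.6.0, DESeq2 1.19.11 and GRCm38, without saying what each did. All values were whole multiples of 1 step per library (100% within 1e-06 of a whole read number), with totals of 23930164 to 36515331 reads (median 28721151). Replicates differed by more than sampling noise (chi-square per degree of freedom 4.57 to 63.7).

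Of 18088 genes, 18077 had a symbol and 17781 were kept (at least 10 in at least 5 libraries). As the deposited values are normalised, the main test was limma 3.58.1 (R 4.3.3, trend, two-sided) on log2(value + 1), with 12 group means over 60 libraries and Benjamini-Hochberg adjustment over all genes. edgeR 4.0.16 and DESeq2 1.42.0 on recovered reads were alternatives, with other pseudocounts, filters, normalization, covariates, library sets and weights, a replicate block and each library left out. Bulb covariates were the mean log2 and mean linear value of 7 markers, both centred. Scripts were tested on simulated data.

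The libraries, the 7 markers and the 34 gene lists were chosen with earlier results of these data known. Named genes were Tbr1, the markers, the 8 that rose and 8 that fell furthest among called genes (mean of at least 50, groups not overlapping, no predicted genes), genes called with covariates, up to 2 called members of each list with the smallest p, and serotonin receptors; 2 of these genes are not reported here. Other members were added as values after their values were seen.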

Additional observations from a re-analysis of the deposited data

Results flagged for a closer look

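In 11 of 172 groups of 5 libraries checked (6.4%), 1 library stood far from the other 4 on the log2 scale by Dixon's test; chance alone gives about 1 group in 20. Of these, 6 genes were highest in fluoxetine replicate 5, the fluoxetine library with the highest bulb marker mean (7.37): Pcsk5 at 896 normalised reads, Trh at 64.9, Calb2 at 1047, Dlx2 at 266, Slc18a2 at 12.6 and Fosl2 at 1501. The mean log2 level of the migrating neuroblast list was also highest there, at 9.49. Fluoxetine replicate 3 was highest for Tcerg1l, at 331, and lowest for Tnc, at 154. Among vehicle libraries, replicate 2 was highest for Col1a1, at 1215, and replicate 4, with the lowest bulb marker mean of its group (9.13), was lowest for Clic6, at 18.2. In the test of the fluoxetine effect in WT minus that in HT females no named gene passed (limma), which does not show that the effects are alike; with library quality weights 2752 genes passed.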

How the results depend on the processing

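The count of 7084 genes lay between 6140 and 9468 under other pseudocounts, filters, normalization, library weights, edgeR (7236) and DESeq2 (7428), and between 4298 (without vehicle replicate 3) and 7883 when 1 library was left out. It was 4 with bulb covariates and 15 with striatal and choroid covariates. Same-numbered libraries did not deviate together (correlations from -0.095 to 0.0096, against -0.24 to 0.17 for different numbers). The numbers were therefore not used as pairs, though so few correlations cannot show that samples were unpaired. With a replicate block 7099 genes were called, and 3 with bulb covariates and the block. With bulb covariates the count was 1 using the groups compared alone or the log marker mean alone, 0 in the F libraries alone, 15 with striatal and choroid covariates added, 26 by DESeq2, 117 with library weights and 1 to 7 when 1 library was left out. The test between genotypes called 2752 genes with library weights, 2 by DESeq2 and 0 otherwise. The correlation with bulb slopes was 0.847 with the log mean alone, 0.832 with slopes from the 20 F libraries and 0.827 to 0.871 when 1 library was left out, and the slope of measured on slope-based values was 0.939, 0.775 and 0.817 to 0.854 in these settings. Signs turned with bulb covariates for Tbr1 (-0.22), Ms4a15 (0.35), Scgn (0.16), Scn4b (-0.47), Sebox (-0.25), Tcte1 (-0.39), Traf3 (-0.39), Fsd1 (-0.23), Dlx1 (0.084), Dlx2 (0.043), Gdnf (0.12), Fosl2 (0.22), Tnr (-0.057), Slc4a4 (0.069), Sall1 (0.073), Tsc1 (-7.2e-05), Gng4 (0.077) and mt-Nd5 (-0.049). Traf3 was at -0.041 with striatal and choroid covariates and mt-Nd5 at -0.089 under quantile normalization. The cause of these turns was not tested beyond the covariate itself. Genes below 50 reads, such as Gng8 and Gdnf, carry the largest counting error.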

Other observations

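Gm5641, a predicted gene chosen here after its values were seen, was at 0 in all 5 WT vehicle females and between 375 and 958 normalised reads in all 5 WT fluoxetine females. Its level did not follow the bulb slopes, which give a log2 difference of 0.02. In HT females it was at 0 in 1 of 5 fluoxetine and 2 of 5 vehicle libraries. No library was at 0 in WT vehicle males (498 to 736 reads) or in HT lithium males (189.8 to 1043); each of the other 6 groups had 1 or 2 of 5 libraries at 0. Predicted genes of this kind can share reads with near-identical copies, and the counting method for such reads is not given in the sources used here.

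The 6 haemoglobin and red cell transcripts were all below 0 with bulb covariates (median log2 difference -0.54), beside 52.0% of all genes. Of them 5 had an unadjusted p below 0.05 (limma), beside 5.49% of all genes on the lower side, and none passed adjustment. The myelin list went the other way, with a median of 0.40 with covariates and 0.24 without, and none of its 15 members was called in either fit.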
